A study of Mus musculus with 12 samples.

Results

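The replication-dependent histone genes were taken as every non-control probe of the array whose gene name began with Hist1h, Hist2h, Hist3h or Hist4h, the older mouse names of the clustered histone genes. The array carried 49 such names on 54 probes, and 41 of them had a probe well above background on all 3 arrays of at least 1 circadian time. Those 41 are 41 of the 24089 genes tested. For each name the brightest such probe was used. Of the measured members, 4 of 6 names were H1, 13 of 14 H2A, 9 of 12 H2B, 6 of 8 H3 and 9 of 9 H4. The 8 names that were not measured (Hist1h1d, Hist1h1t, Hist1h2ae, Hist1h2bb, Hist1h2bp, Hist1h3a, Hist1h3g and Hist3h2bb-ps) were well above background on 0 to 5 of the 12 arrays. In mouse build mm9, which the array annotation uses, 29 measured members lay on chromosome 13 (probes between 21814057 and 24026527), 9 on chromosome 3, 2 on chromosome 11 and 1 on chromosome 6.

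The samples were hippocampi of wild-type adult male mice, 3 per circadian time, kept in continuous darkness. CT18 followed 30 h of darkness, CT0 36 h, CT6 42 h and CT12 48 h, so circadian time and hours in darkness cannot be told apart. RNA of each mouse was hybridised to its own one-colour Agilent array. The question of the study was which hippocampal genes are under circadian control.

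Histones H2A, H2B, H3 and H4 form the protein core around which DNA is wound, and H1 binds the linker DNA between cores. The clustered genes are transcribed mainly in S phase, when new DNA needs new histones, and their mRNAs end in a conserved stem loop in place of a poly(A) tail, which stem-loop binding protein (Slbp) recognises. Some of these genes also give longer, polyadenylated mRNAs that run past the stem loop, a form known from cells that have stopped dividing. The labelling kit named in the labels copies RNA from the poly(A) tail.

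The probes reached different parts of these transcripts, and their sequences show which. All are 60 bases long. The histone stem-loop motif was searched for on the probe strand by its conserved letters. It was present in 6 of the 54 member probes and in 7 of the 55681 probes of the array (0.0126%). These 6 are printed with a few flanking bases and the motif in capitals, because they end at or span the place where a replication-dependent transcript normally stops.
Hist1h3a: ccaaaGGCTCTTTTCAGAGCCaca
Hist1h3g: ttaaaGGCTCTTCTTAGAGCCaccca
Hist1h3i: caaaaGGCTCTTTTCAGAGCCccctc
Hist1h4m: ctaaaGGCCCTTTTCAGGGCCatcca
Hist2h2aa1: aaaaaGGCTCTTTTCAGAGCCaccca
Hist2h2bb: caaaaGGCTCTTTTCAGAGCCacttt

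The hexamers AATAAA and ATTAAA, known from poly(A) signals, were searched next by their letters alone, on the probe strand. AATAAA was present in 2 of the 54 member probes against 10.1% of all array probes, and ATTAAA in 2 of 54 against 3.95%. AATAAA lay in the probes of Hist1h2ag and Hist3h2ba, and ATTAAA in those of Hist1h2be and Hist1h4i. Of these only Hist1h2be was called in a test. In the Hist1h2ag probe the letters overlap the stop codon of the H2A coding sequence. Whether any of these matches acts as a poly(A) signal was not tested. The probes of Hist1h2be and Hist3h2ba are shown around the hexamer, in capitals, because the first of them carried the clearest change with time.
Hist1h2be: actgttcattATTAAAgcattcctga
Hist3h2ba: taatggtattAATAAAtttggttca

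A group of H2A probes covered the end of the coding sequence, up to the stop codon. The 4 of them that start at base 333 of their transcripts differed from each other at 10 positions, which are in capitals. They are shown because their values, given further on, ran together. The annotation of these probes lists 2 (Hist1h2af and Hist2h2aa2), 3 (Hist1h2ak) and 4 (Hist1h2an) RefSeq mRNAs.
Hist1h2af: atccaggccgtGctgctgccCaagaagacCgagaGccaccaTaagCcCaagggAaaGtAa
Hist1h2ak: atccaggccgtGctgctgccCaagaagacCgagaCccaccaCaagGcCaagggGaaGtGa
Hist1h2an: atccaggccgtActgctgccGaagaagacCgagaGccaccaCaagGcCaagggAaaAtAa
Hist2h2aa2: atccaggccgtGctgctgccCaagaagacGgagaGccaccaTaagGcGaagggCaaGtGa

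Members therefore share targets. The used probe of 14 of the 41 members lists 2 or more mRNAs, and that of 14 members shares a run of 20 bases with the probe of another member. Counts of members are not counts of independent measurements.

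Values are log2 processed signals minus each array's 75th percentile, called scaled log2 signals here, and 1 unit is a doubling. Across libraries, 59.3% to 77.1% of non-control spots were well above background. The library of CT12 mouse 11 stood apart: its correlation with the others over all genes was 0.945 to 0.965, while any pair of the other 11 reached at least 0.984. Its 10 measured cerebellum markers of 12 had a median of 4.60 above their own means over the libraries (-0.73 to 0.01 in the other 11), and its 7 excitatory neuron markers of 7 a median of -4.19 (-0.22 to 0.60 in the others). The median of 10 measured choroid plexus markers of 11 was high, at 1.87 to 3.85, in CT0 mouse 1, CT6 mouse 7, CT12 mouse 10, CT12 mouse 11 and CT18 mouse 14. Their part in the member values was not tested. Results are given with all libraries and without CT12 mouse 11. Fewer cells of a type and less RNA per cell cannot be told apart in tissue RNA.

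Most H2B, H3 and H2A members were higher at CT18 than at CT6, the largest difference being that of Hist1h2be, while H4 members had a median near 0 and 3 of 4 H1 members were lower. With all 12 libraries, 1 of 41 members, Hist1h2be, passed limma's moderated F test among the 4 times (adjusted p under 0.05 over all genes), where 0.166% of all genes did. The 24-hour cosine fit called the same member, where 0.0706% of all genes were called. In CT18 against CT6, 1 of 41 members was called higher (0.0913% of all genes) and 0 lower (0.0415%). At an unadjusted p under 0.05 these were 11 higher and 0 lower, against 4.01% and 4.31% of all genes. In CT12 against CT0, 0 of 41 members were called by limma (0.0581% of all genes), although 12 were lower and 0 higher at an unadjusted p under 0.05 (7.02% and 4.65% of all genes). The median difference CT18 minus CT6 was 0.20 over the members, with 32 of 41 above 0, and -0.02 over all genes. The median difference CT12 minus CT0 was -0.18 over the members, with 12 of 41 above 0, and -0.02 over all genes. Without CT12 mouse 11 the latter became -0.05, with 20 of 41 above 0.

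The 3 CT18 libraries lay above all 3 CT6 libraries in 14 of 41 members, where 11.3% of all genes did so, and below them in 4 members, where 11.6% of all genes did. The 3 CT12 libraries lay below all 3 CT0 libraries in 10 of 41 members (7.77% of all genes) and above them in 1 (5.18%). In 7 members every CT0 and CT18 library was above every CT6 and CT12 library, a grouping of times chosen after the values were seen, against 0.926% of all genes. These were Hist1h2ba, Hist1h2bc, Hist1h2be, Hist1h2bm, Hist2h3c1, Hist2h3c2-ps and Hist3h2a. By their means, 19 of 41 members were highest at CT18 and 1 at CT6, while 18 were lowest at CT12. Of all genes, 25% were highest at CT18 and 24.1% at CT6, and 36.4% were lowest at CT12.

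Without CT12 mouse 11, 5 of 41 members were called higher at CT18 than at CT6, where 0.801% of all genes were, and 0 lower (0.448%). At an unadjusted p under 0.05 these were 10 higher and 0 lower (6.82% and 7% of all genes). In CT12 against CT0 limma called 0 (0.0291% of all genes), with 1 higher and 11 lower at an unadjusted p under 0.05 (3.01% and 5.37% of all genes). The same 5, Hist1h2bc, Hist1h2be, Hist1h2bm, Hist2h3c1 and Hist2h3c2-ps, were called by the cosine (0.286% of all genes). The F test still called Hist1h2be alone (0.266% of all genes). The difference CT18 minus CT6 does not contain the left-out library, so its size was the same in both fits, and its standard error was smaller without that library in 31 of 41 members, the 5 called among them.

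**Figure D1:**
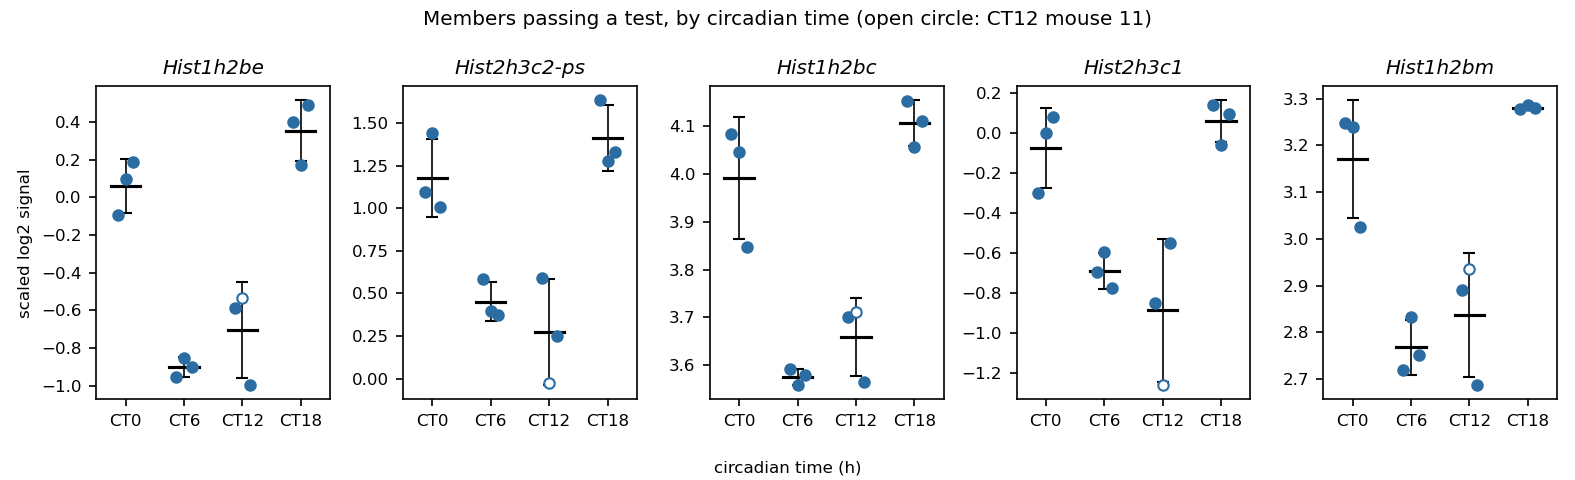
Scaled log2 signal (vertical axes) of the 5 members called in at least 1 test with or without CT12 mouse 11, by circadian time in hours; each point is 1 mouse, the bar its group's mean with the SD, n = 3, and the open circle CT12 mouse 11. In each panel the 6 libraries of CT0 and CT18 lie above the 6 of CT6 and CT12.

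The H2B genes encode the partner of H2A in the core. Hist1h2be, now named H2bc6, was read by a probe at chr13:23675610-23675669 (mm9, minus strand) that starts at base 2375 of its transcript and carries the ATTAAA shown above. Its scaled log2 signals were -0.09, 0.10 and 0.19 at CT0, -0.95, -0.85 and -0.90 at CT6, -0.59, -0.53 and -1.0 at CT12, and 0.40, 0.17 and 0.49 at CT18. Libraries of CT0 and CT18 were high, those of CT6 and CT12 low, and neither CT6 nor CT12 overlapped CT0 or CT18. It was 2.38-fold higher at CT18 than at CT6, a log2 difference of 1.25 ± 0.14 (SE, n = 3 per time, limma's adjusted p = 0.0106). The cosine put its maximum at 20.1 h (adjusted p = 0.0108, limma), and the F test gave an adjusted p of 0.0231 (limma).

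On the 3 slides, each of which held 1 array of each time, Hist1h2be differed between CT18 and CT6 by 1.35, 1.02 and 1.39. With slide as a block its adjusted p was 0.0441 for CT18 against CT6, 0.0366 for the cosine and 0.0733 for the F test, by limma, so the last call was lost. In that fit 0.166%, 0.054% and 0.0664% of all genes were called by these tests. Its CT18 against CT6 call was also lost without CT6 mouse 5, 6 or 7 or without CT18 mouse 14 or 16, with limma's adjusted p between 0.0703 and 0.105 and differences between 1.19 and 1.28.

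Hist1h2bc (H2bc4) was read at chr13:23784254-23784313 (mm9, plus strand), from base 632 of its transcript. Its scaled log2 signals were 4.08, 4.05 and 3.85 at CT0, 3.59, 3.56 and 3.58 at CT6, 3.70, 3.71 and 3.56 at CT12, and 4.15, 4.06 and 4.11 at CT18. CT18 and CT0 were again above CT6 and CT12 with no overlap. The difference CT18 minus CT6 was 0.53 ± 0.09 (SE, n = 3 per time), with limma's adjusted p 0.0568 over all libraries and 0.0286 without CT12 mouse 11. On the single slides it was 0.56, 0.50 and 0.53.

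The probe of Hist1h2bm (H2bc14) starts at base 90 of its transcript, inside the coding sequence, at chr13:21814057-21814116 (mm9, plus strand), and lists 4 H2B mRNAs, so that its signal is not that of 1 gene. It is printed because its values ran beside those of Hist1h2bc although the 2 probes have no run of 20 bases in common.
Hist1h2bm: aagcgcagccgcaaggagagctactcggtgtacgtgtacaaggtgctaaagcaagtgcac
Its scaled log2 signals were 3.25, 3.24 and 3.03 at CT0, 2.72, 2.83 and 2.75 at CT6, 2.89, 2.94 and 2.69 at CT12, and 3.28, 3.29 and 3.28 at CT18. The groups fell into the same high and low pairs without overlap. The difference CT18 minus CT6 was 0.51 ± 0.10 (SE, n = 3 per time), with limma's adjusted p 0.0868 over all libraries and 0.0328 without CT12 mouse 11.

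The other H2B members named by their F test were not called in any fit given here. Hist1h2ba, a gene known from the testis, stood at 2.73, 2.78 and 2.59 at CT0, 2.41, 2.48 and 2.39 at CT6, 2.49, 2.56 and 2.18 at CT12 and 2.76, 2.67 and 2.77 at CT18. Its 4 groups showed the same split without overlap, with a difference CT18 minus CT6 of 0.31 ± 0.11 (SE, n = 3 per time, limma's adjusted p = 0.424). Hist1h2bg, a dim probe (well above background on 11 arrays), had its largest difference between CT12 and CT0, -0.98 ± 0.25 (SE, n = 3 per time, limma's adjusted p = 0.310). Over the 9 measured H2B members the median difference CT18 minus CT6 was 0.31, with 8 above 0.

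The H3 class had the largest median difference of the 5 classes between CT18 and CT6, 0.68 over 6 members, with 5 above 0. Hist2h3c2-ps (H3c15) and Hist2h3c1 (H3c14) belong to a duplicated block on chromosome 3. The probe of Hist2h3c1 starts at base 399 of its transcript and lists 3 mRNAs, among them that of Hist2h3c2-ps, so the members share a target. It reads the coding sequence, as printed here for comparison with the later probe of Hist2h3c2-ps, which starts at base 957.
Hist2h3c1: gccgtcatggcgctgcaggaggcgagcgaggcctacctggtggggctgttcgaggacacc
Hist2h3c2-ps (chr3:96042034-96042093, mm9, minus strand) had scaled log2 signals of 1.09, 1.44 and 1.01 at CT0, 0.58, 0.40 and 0.38 at CT6, 0.59, -0.03 and 0.25 at CT12, and 1.63, 1.28 and 1.33 at CT18. CT0 and CT18 lay above CT6 and CT12 without overlap, and CT12 mouse 11 was the lowest library. The difference CT18 minus CT6 was 0.96 ± 0.18 (SE, n = 3 per time), 1.95-fold, with limma's adjusted p 0.0756 over all libraries and 0.0286 without CT12 mouse 11.

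Hist2h3c1 (chr3:96051073-96051132, mm9, plus strand) had scaled log2 signals of -0.30, -0.0011 and 0.08 at CT0, -0.70, -0.59 and -0.77 at CT6, -0.85, -1.26 and -0.55 at CT12, and 0.14, -0.06 and 0.10 at CT18. The same pair of times was high, and CT12 mouse 11 again the lowest library. The difference CT18 minus CT6 was 0.75 ± 0.17 (SE, n = 3 per time), with limma's adjusted p 0.163 over all libraries and 0.0312 without CT12 mouse 11. Leaving out CT12 mouse 12 instead gave Hist2h3c1 a call in CT12 against CT0, at -0.98 (limma's adjusted p = 0.0454), and in the F test (limma's adjusted p = 0.0406), where 0.324% and 0.486% of all genes were called. Among the dimmer H3 probes, Hist1h3f differed between CT18 and CT6 by 0.88 ± 0.24 (SE, n = 3 per time, limma's adjusted p = 0.255).

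Of the 13 measured H2A members, 12 had a CT18 minus CT6 difference above 0, with a median of 0.17, and 0 were called by limma in the tests with all libraries or without CT12 mouse 11. At an unadjusted p under 0.05 in at least 1 test there were 4 and 3 of 13, against 19.2% and 20.6% of all genes. Hist3h2a (H2aw), a gene outside the main cluster read at chr11:58768954-58769013 (mm9, plus strand) from base 767, came closest. Its scaled log2 signals were 2.91, 3.05 and 2.94 at CT0, 2.71, 2.72 and 2.70 at CT6, 2.47, 2.24 and 2.80 at CT12, and 3.08, 3.28 and 3.50 at CT18. CT18 was the highest group and overlapped no other. The difference CT18 minus CT6 was 0.58 ± 0.15 (SE, n = 3 per time), with limma's adjusted p 0.209 over all libraries, 0.0566 without CT12 mouse 11, and 0.0388 when that library was left out and slide was a block.

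Hist1h2aa, another gene known from the testis, differed between CT18 and CT6 by 0.60 ± 0.20 (SE, n = 3 per time, limma's adjusted p = 0.366). Hist1h2ac, read from base 2426, differed by 0.45 ± 0.19 (SE, n = 3 per time, limma's adjusted p = 0.558). Hist2h2ab went the other way, at -0.89 ± 0.43 (SE, n = 3 per time, limma's adjusted p = 0.664), on a dim probe well above background on 11 arrays. Its CT18 libraries, at -5.13, -4.88 and -5.75, were all below its CT6 libraries, at -4.07, -4.36 and -4.67.

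**Figure D2:**
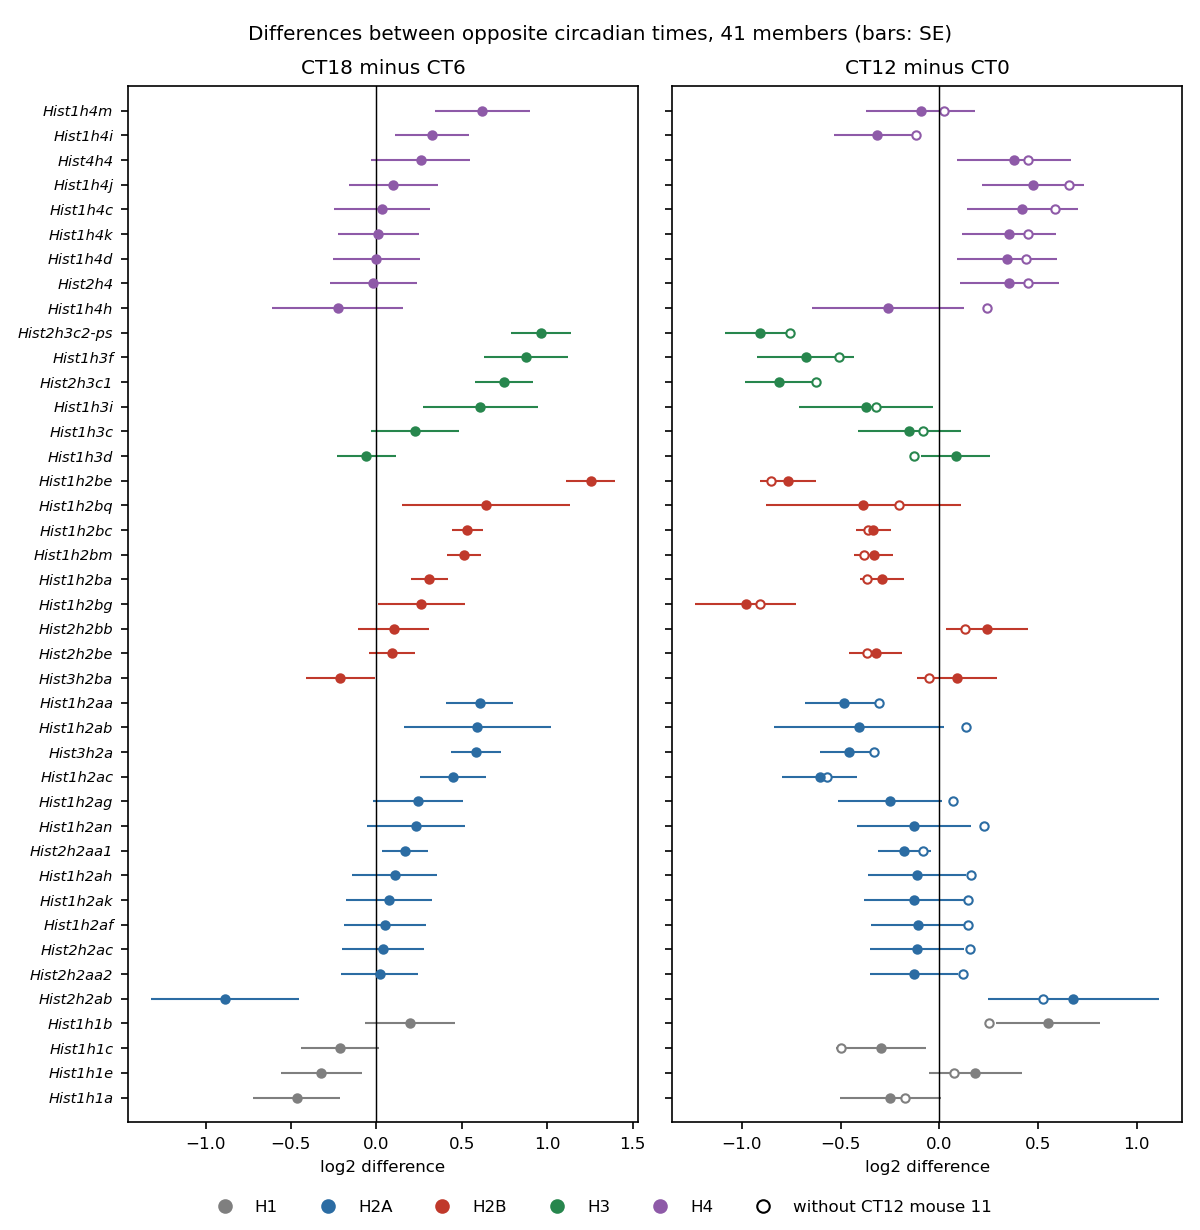
Log2 difference CT18 minus CT6 (left) and CT12 minus CT0 (right) for each of the 41 members, coloured by histone class; bars are the standard error of the fit with n = 3 per time, and open circles the difference without CT12 mouse 11. On the left 32 of 41 members lie above 0, with Hist1h2be at 1.25, while most H4 members lie near 0.

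The H2A probes that end at the stop codon moved with single libraries more than with time. Over the 6 members Hist1h2af, Hist1h2ah, Hist1h2ak, Hist1h2an, Hist2h2aa2 and Hist2h2ac, the median deviation from each probe's own mean was -0.65 for CT12 mouse 11 and 0.57 for CT12 mouse 12. Elsewhere, in 10 libraries, it lay between -0.23 (CT12 mouse 10) and 0.19 (CT18 mouse 16). Differences CT18 minus CT6 of these 6 members ran from 0.02 to 0.23. The pattern was not confined to these probes. Over all 13 H2A members CT12 mouse 11 was the lowest library in 10 and CT12 mouse 12 the highest in 9, against 30.3% and 13.7% of all genes. Hist1h2ab (-0.36 and 1.93 in these 2 libraries) and Hist1h2ag (3.54 and 4.88), named after their values were seen, are among them. The second Hist1h2ak probe, from base 0, stood at 0.29 and 1.78. The median CT12 minus CT0 of the whole H2A class was -0.13 with all libraries, 0.13 without CT12 mouse 11 and -0.48 without CT12 mouse 12, so its sign rests on which of these libraries is in the fit. The stem-loop probe of Hist2h2aa1 lies close by the stop-codon probe assigned to Hist2h2aa2 on chromosome 3 (probe starts 96049949 and 96049837 in mm9, both plus strand). Hist2h2aa1 stood at 3.44, 3.13 and 3.39 in CT12 mice 10, 11 and 12, a narrower range, where Hist2h2aa2 stood at 5.40, 5.01 and 6.10. Hist2h2aa1 and Hist2h2aa2 were singled out after their values were seen.

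H4 is the most conserved core histone. CT12 mouse 12 was the highest of the 12 libraries in 8 of 9 H4 members, and in 6 of them, all but Hist1h4h, Hist1h4i and Hist1h4m, it was at least 0.48 above the next library. Over all members it was the highest library in 19 of 41, against 13.7% of all genes. Hist1h4c, chosen after its values were seen because it had the widest gap, stood at 0.29 there and between -1.04 and -0.78 in the other 11 libraries. The share of spots well above background in this library, 59.3%, was the lowest of the 12, and 12 of its 13 marker medians lay within the range of the other 11 libraries. The exception was endothelium, at -0.22 against -0.17 to 0.12. With CT12 mouse 11 set aside as well, blood (0.45 against -0.52 to 0.27) and adult neurogenesis (-0.43 against -0.36 to 0.39) also lay outside, and the part of these in the H4 values was not tested. The median CT12 minus CT0 of the 9 H4 members was 0.35 with all libraries and -0.00017 without CT12 mouse 12. The median CT18 minus CT6 was 0.03, with 6 of 9 above 0.

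**Figure D3:**
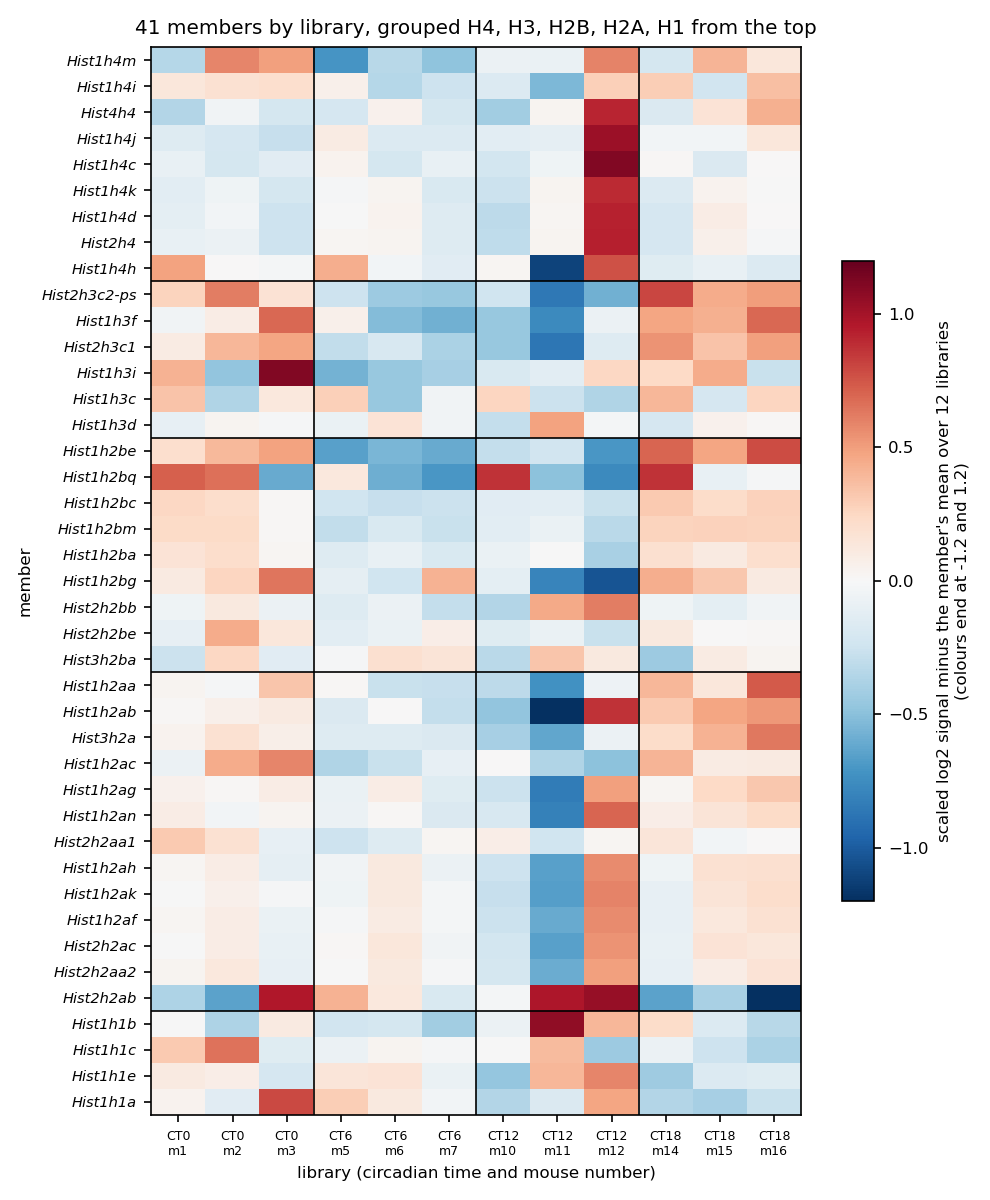
Each cell is a member's scaled log2 signal in 1 library minus that member's mean over the 12 libraries; columns are libraries by circadian time and mouse number, rows the 41 members grouped by class. By their means, 7 of 9 H2B members (not Hist2h2bb and Hist3h2ba) and 5 of 6 H3 members (not Hist1h3d) are higher at both CT0 and CT18 than at CT6 and CT12, while H4 and H2A stop-codon probes are red in CT12 mouse 12, and the latter blue in CT12 mouse 11.

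Hist1h4i (H4c9) was read by 2 probes, which differed between CT18 and CT6 in the same direction, neither of them called. Its brightest probe, from base 483, gave a CT18 minus CT6 difference of 0.32 ± 0.22 (SE, n = 3 per time, limma's adjusted p = 0.862), with the CT18 values -0.81, -1.33 and -0.74 overlapping the CT6 values -1.05, -1.45 and -1.36. This probe shares a run of 20 bases with 1 array probe outside the members, and whether it reads this gene alone was not tested. The second probe, from base 23, stood at -1.53, -1.26 and -1.03 at CT0, -2.09, -2.07 and -2.11 at CT6, -2.08, -2.10 and -1.66 at CT12 and -1.44, -1.59 and -1.35 at CT18. On it CT0 and CT18 lay above CT6 and CT12 without overlap, with a difference CT18 minus CT6 of 0.63 ± 0.15 (SE, n = 3 per time, limma's adjusted p = 0.20 when every probe was tested). Among the other members with 2 kept probes, those of Hist1h4k differed between CT18 and CT6 by 0.01 and 0.05, and those of Hist1h2ak by 0.07 and 0.23. The stem-loop probe of Hist1h4m differed between CT18 and CT6 by 0.62 ± 0.28 (SE, n = 3 per time, limma's adjusted p = 0.597).

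The 4 measured H1 members had a median CT18 minus CT6 of -0.27, with 1 above 0. Hist1h1a differed by -0.47 ± 0.26 (SE, n = 3 per time, limma's adjusted p = 0.735), and its CT18 libraries, at -4.14, -4.19 and -4.06, were all below its CT6 libraries, at -3.49, -3.68 and -3.83. Hist1h1b differed by 0.20 ± 0.26 (SE, n = 3 per time, limma's adjusted p = 1.0) and had its highest value, -1.02, in CT12 mouse 11. Its next highest was -1.69 in CT12 mouse 12.

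The differences were set against the place of the probe. Over the 11 members whose probe starts at base 500 or later and holds no stem loop, the median CT18 minus CT6 was 0.45 (from -0.32 to 1.25), with 8 above 0. Over the 26 members with an earlier start it was 0.10 (from -0.89 to 0.88), with 20 above 0. The 4 members with a stem loop in the probe had a median of 0.39 (from 0.10 to 0.62), all 4 above 0. The calls without CT12 mouse 11 fell on 3 of the 11 late probes and on 2 of the 26 early ones. The grouping was made with the values known, is no test, and the early group holds the H2A and H4 probes that share targets. The cut at base 500 was the same for all classes, and transcript boundaries were not used. A late start therefore does not place a probe past the stem loop, nor an early one before it. Hist1h4i, from base 483, is in the early group.

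**Figure D4:**
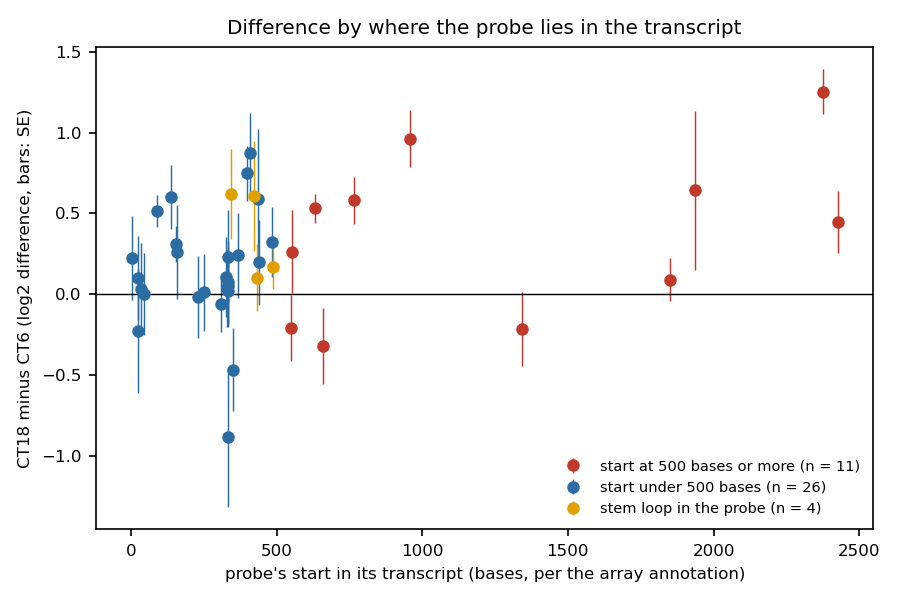
Log2 difference CT18 minus CT6 of each of the 41 members (vertical axis, bars are the SE with n = 3 per time) against the base of the transcript at which its probe starts (horizontal axis). Late probes run from -0.32 to 1.25, with Hist1h2be highest, and the 4 H2A probes at base 333 lie between 0.02 and 0.23, while the H2A probe of Hist2h2ab at base 332 is the lowest of all, at -0.89.

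Promoter windows, the 250 bases before the annotated start, were available from RefSeq (GRCm38.p6) for 43 of the 49 names. Motifs were searched on both strands. CCAAT was present in 35 of 43 against 33.8% of all 32851 windows, TATAAA in 22 against 12.4%, and ATTTGCAT, the octamer known from H2B promoters, in 13 against 1.60%. The octamer was found in 7 of 14 H2A and 6 of 9 H2B genes and in 0 of the 6 H1, 6 H3 and 8 H4 genes. CACGTG, the E-box core known from clock-controlled genes, was present in 0 of 43, against 6.02% of all windows, which says only that these letters are not in these windows. Of the 5 members called, 4 had a window. H2bc6 has 2 windows at separate starts, 1 with the octamer and 1 without, and which start gives the transcript read by the Hist1h2be probe is not known here. The window with the octamer is printed beside those of H2bc14 and H3c14, with CCAAT, its reverse complement ATTGG and the octamer in capitals, because these members had the same high and low times.
H2bc6, chr13:23585971-23586220, minus strand: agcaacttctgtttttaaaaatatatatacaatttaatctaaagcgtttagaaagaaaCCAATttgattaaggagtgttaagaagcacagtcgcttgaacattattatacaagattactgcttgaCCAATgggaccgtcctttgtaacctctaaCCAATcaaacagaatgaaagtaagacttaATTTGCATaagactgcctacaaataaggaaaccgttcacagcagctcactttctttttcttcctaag
H2bc14, chr13:21721794-21722043, plus strand: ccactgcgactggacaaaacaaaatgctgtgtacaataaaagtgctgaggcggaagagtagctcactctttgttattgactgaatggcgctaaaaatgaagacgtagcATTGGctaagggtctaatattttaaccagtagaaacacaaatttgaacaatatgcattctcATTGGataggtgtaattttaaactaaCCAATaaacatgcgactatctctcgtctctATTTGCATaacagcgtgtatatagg
H3c14, chr3:96246435-96246684, plus strand: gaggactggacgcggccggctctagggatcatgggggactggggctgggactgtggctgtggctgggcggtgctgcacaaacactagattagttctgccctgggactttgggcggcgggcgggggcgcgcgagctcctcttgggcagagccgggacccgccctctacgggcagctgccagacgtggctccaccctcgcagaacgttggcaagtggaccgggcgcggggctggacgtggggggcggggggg
The H3c14 window holds none of the first 3 motifs. The window of H3c15 shares a run of 231 bases with it, as the genes are copies.

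Genes that make, process and use these mRNAs were described from 6 lists. Replacement histones are for the most part made also outside S phase and with poly(A) tails. Of the 12 measured of 14 listed, 0 passed any of the 4 tests by limma, with a median CT18 minus CT6 of 0.02. At an unadjusted p under 0.05 in at least 1 test there were 0 of 12, against 19.2% of all genes. Without CT12 mouse 11 there were 2 of 12, against 20.6%. H1f10 had the smallest F test p among the replacement histones, with a CT18 minus CT6 of -0.23 ± 0.22 (SE, n = 3 per time, limma's adjusted p = 0.996). H2az2 differed by 0.20 ± 0.16 (SE, n = 3 per time, limma's adjusted p = 0.957). Of 26 of 27 genes of histone mRNA synthesis and processing, 0 were called by limma (6 at an unadjusted p under 0.05 in at least 1 test, which 19.2% of all genes reached), with a median of 0.10 and 19 above 0. Srrt, which links the cap-binding complex to RNA processing, differed by 0.40 ± 0.10 (SE, n = 3 per time, limma's adjusted p = 0.226). Cpsf2, a subunit of the cleavage complex, differed by 0.39 ± 0.19 (SE, n = 3 per time, limma's adjusted p = 0.662). Slbp, named for its role and not by the rule, differed by 0.11 ± 0.19 (SE, n = 3 per time, limma's adjusted p = 1.0).

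Among 22 of 22 histone chaperones, 1 was called lower at CT18 than at CT6 and 0 higher by limma (0.0415% and 0.0913% of all genes). That gene was Chaf1b, a subunit of the complex that loads H3 and H4 onto new DNA. Chaf1b stood at -1.95, -2.08 and -1.91 at CT0, -1.76, -1.65 and -1.75 at CT6, -1.99, -2.05 and -1.83 at CT12 and -2.36, -2.26 and -2.42 at CT18. CT18 was the lowest group and overlapped no other, with a difference CT18 minus CT6 of -0.62 ± 0.09 (SE, n = 3 per time, limma's adjusted p = 0.0439). The call was lost under 9 of the 11 other settings that kept all libraries, among them slide as a block, and when any library other than CT12 mouse 11 or CT12 mouse 12 was left out. Nasp, which holds free H3 and H4, differed by 0.25 ± 0.09 (SE, n = 3 per time, limma's adjusted p = 0.412).

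Of 29 of 30 genes of DNA replication and S phase, 0 were called by limma in any of the 4 tests (4 at an unadjusted p under 0.05 in at least 1 test, which 19.2% of all genes reached), with a median CT18 minus CT6 of -0.04 and 13 above 0. Pole, the leading-strand polymerase, differed by -0.35 ± 0.15 (SE, n = 3 per time, limma's adjusted p = 0.561), and Cdt1, which licenses origins, by -0.40 ± 0.31 (SE, n = 3 per time, limma's adjusted p = 0.938). Cdt1 was highest in CT12 mouse 11, at 0.34, against -1.83 to -0.82 in the other libraries. Of 14 of 20 mitosis genes, 0 were called by limma with all libraries, with a median CT18 minus CT6 of 0.14 and 11 above 0. At an unadjusted p under 0.05 in at least 1 test there were 6 of 14, against 19.2% of all genes. Without CT12 mouse 11 there were 3 of 14, against 20.6%. Ccnb2, a mitotic cyclin, was called higher at CT18 than at CT6 without CT12 mouse 11 (0.42 ± 0.08, SE, n = 3 per time, limma's adjusted p = 0.0369 without that library and 0.0953 with it), where 0.801% of all genes were. Ccnb1 differed by 0.12 ± 0.18 (SE, n = 3 per time, limma's adjusted p = 1.0). Of 10 of 13 genes of poly(A) tailing, 0 were called by limma (3 at an unadjusted p under 0.05 in at least 1 test, against 19.2% of all genes), with a median of 0.06. Papola, the main poly(A) polymerase, differed by 0.40 ± 0.10 (SE, n = 3 per time, limma's adjusted p = 0.206). Pabpn1, the nuclear poly(A)-binding protein, differed by -0.39 ± 0.10 (SE, n = 3 per time, limma's adjusted p = 0.240).

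Of 13 marker lists, 2 had summed signals that split the times as the called members did. The summed signal of 9 of 9 dentate granule cell markers (on the log2 scale, all 9 well above background in every library) was 4.67 to 4.75 at CT0, 4.15 to 4.49 at CT6, 4.24 to 4.36 at CT12 and 4.71 to 4.99 at CT18, so CT0 and CT18 did not overlap CT6 and CT12. In CT12 mouse 11 the sum was 4.24, although the median deviation of these markers from their own means was -1.54 (-0.32 to 0.58 in the other 11). Plk5, named after its values were seen, was the 1 marker with a CT12 minus CT0 difference above 0. It stood at 0.47, and at -0.34 without that library. All 9 markers had a CT18 minus CT6 difference above 0, with a median of 0.50. With all libraries 0 of the 9 were called by limma. At an unadjusted p under 0.05 in at least 1 test there were 4 of 9, against 19.2% of all genes. Without CT12 mouse 11 there were 7 of 9, against 20.6% of all genes. In that fit Lct, which is also in the CA1 pyramidal cell list, was called higher at CT18 than at CT6 (limma's adjusted p = 0.0336), where 0.801% of all genes were. The 6 of 6 oligodendrocyte precursor markers, all well above background in every library, summed to 4.87 to 5.04 at CT0, 4.74 to 4.82 at CT6, 4.64 to 4.83 at CT12 and 4.95 to 5.05 at CT18, also without overlap between the pairs of times. Of these, 4 of 6 had a CT18 minus CT6 difference above 0, with a median of 0.14. Without CT12 mouse 11 Olig2 was called higher at CT18 than at CT6 (limma's adjusted p = 0.0455), where 0.801% of all genes were. The part of either cell type in the histone values was not tested. The summed signal of 8 of 8 adult neurogenesis markers was 2.20 to 2.27 at CT0, 2.12 to 2.30 at CT6, 1.94 to 3.53 at CT12 and 2.10 to 2.25 at CT18, with 4 of 8 higher at CT18 than at CT6. At an unadjusted p under 0.05 in at least 1 test there were 2 of these 8 markers with all libraries, against 19.2% of all genes. Without CT12 mouse 11 there were 4 of 8, against 20.6%. In that fit Sox11 was called higher at CT18 than at CT6 (0.69, limma's adjusted p = 0.0328), where 0.801% of all genes were. Dcx, named after its values were seen, went the other way at -0.60 (limma's adjusted p = 0.125 without that library). The 7 of 7 excitatory neuron markers summed to 6.36 to 6.40 at CT6 and 6.32 to 6.66 at CT18. In the libraries with high choroid plexus markers the 5 called members had a median deviation from their own means of 0.23 (CT0 mouse 1), -0.38 (CT6 mouse 7) and 0.54 (CT18 mouse 14), beside 0.18 and 0.39, -0.30 and -0.28, and 0.34 and 0.49 in the other libraries of those times. At CT12 it was -0.24 for mouse 10 and -0.23 for mouse 11, beside -0.33 for mouse 12.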

How the data were processed

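RNA of 12 mouse hippocampi was measured on 12 one-colour arrays, and per the labels scanned images were read with Agilent Feature Extraction. The processed signals are intensity values that per the file headers were already corrected for background, and the deposited files also give flags for spots well above background and for outliers. The series' deposited value table holds log2 values, each column with a median of 5.36. Its scale and centring steps are not given in the sources used here, and it served as an alternative.

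Outlier spots were left out, spots of a probe averaged, and log2 of the processed signal taken, and the 75th percentile of each array's non-control probes subtracted. The array held 55681 such probes. Those without a usable value on every array, 146 in all, were dropped, and 33965 were well above background on all 3 arrays of at least 1 circadian time. The brightest was kept for each of 24089 genes. Limma 3.58.1 in R 4.3.3 (lmFit and eBayes, tested on simulated data) fitted 1 mean per time over all 12 arrays, and separately a 24-hour cosine and sine. P-values were adjusted by Benjamini-Hochberg over all genes for each test, with a threshold of 0.05. No labels say more of the replicates than that they are separate mice, and their number limits the precision. Each slide held 1 array of each time, at a position that was the same for a time on all 3 slides, so position and time cannot be told apart.

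The members and the gene lists were chosen with earlier results of these data known. Members are named in the text when they pass a test with all libraries or without CT12 mouse 11, are among the 12 with the smallest F test p, or are among the 2 smallest of their class. Of each list, called genes and the 2 with the smallest F test p are named. Other names are said to be chosen after their values were seen. Symbols and promoter sequences are from RefSeq (GRCm38.p6). Probe coordinates are mm9, from the array annotation. Exon and UTR boundaries were not used here. Alternatives were other scalings, background corrections, filters, probe rules, slide as a block, another variance model and each library left out.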

Additional observations from a re-analysis of the deposited data

How the results depend on the processing

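The main counts were 1 of 41 members by the F test, 1 by the cosine, 0 in CT12 against CT0 and 1 in CT18 against CT6, with medians of -0.18 (CT12 minus CT0) and 0.20 (CT18 minus CT6). Quantile normalization, median centring, normexp, the deposited table, the mean of a gene's probes and testing every probe left these 4 counts as they were. Normexp lowered the CT18 minus CT6 median to 0.10, and no filter on dim probes to 0.12. The F test called 0 without the filter (0.00555% of all genes) and 0 with slide as a block (0.0664%). With probes well above background on all 12 arrays the F test called 2 (0.245% of all genes) and CT18 against CT6 called 2 (0.294%). Slide as a random block gave 4 by the F test (0.602% of all genes), 4 by the cosine (0.245%) and 4 in CT18 against CT6 (0.677%). Variance trend with robust fitting gave 3 (0.228%), 4 (0.112%) and 3 (0.282%). Without CT12 mouse 11 and with slide as a block the cosine called 5 (0.502% of all genes) and CT18 against CT6 called 6 (2.76%), and the CT12 minus CT0 median was 0.04. The cause of these moves was not tested, and the filter settings also change which probes are in the fit.

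Leaving out each of the 12 libraries in turn gave 0 to 2 by the F test, 0 to 5 by the cosine, 0 to 1 in CT12 against CT0 and 0 to 5 in CT18 against CT6. The medians ran from -0.32 to -0.05 and from 0.15 to 0.22. Over those fits the CT18 minus CT6 difference of Hist1h2be ran from 1.19 to 1.34, and its adjusted p (limma) from 0.0067 to 0.105, passing in 7 of 12. Its F test call was absent when CT18 mouse 14 or 16, any CT6 mouse, or any CT0 mouse was left out. Its cosine call was absent without CT18 mouse 14.

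The 6 gene lists together held 1 called gene, Chaf1b. The count was 0 with quantile normalization, median centring, normexp, the deposited table, no filter, the mean of probes, every probe tested, slide as a block, or variance trend with robust fitting. It was 2 with slide as a random block and 4 without CT12 mouse 11 and with slide as a block, and 0 to 2 over the left-out libraries. No paired analysis by mouse was possible because each mouse carries its own number and no number is shared between circadian times. Arrays were matched by slide, in the fits with slide as a block. With 3 mice per time, small differences are not detectable, and dim probes are bounded by background.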
